A study of Mus musculus with 134 samples.

Results

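The Dppa and germline-linked genes described here are Dppa2, Dppa3, Dppa4 and Dppa5a, named for developmental pluripotency association, and Dazl, Ddx4, Sycp3, Mael and Stk31, which are best known from germ cells. They were chosen by name as 9 of the 25209 genes in the bulk expression files, and all 9 were also in the single-cell matrices, which list 18817 genes. The study developed SET-seq, in which Tn5 cuts mRNA/cDNA hybrids and antibody-marked chromatin so that RNA and a histone mark can be read from the same mouse embryonic stem cells (mESCs). All cells are labelled E14, strain 129/Ola, and the methods name the line ES-E14TG2a, grown on gelatin with serum and LIF. The expression data are 54 bulk libraries in 27 conditions of 2 libraries each, and 16 single-cell experiments with 752 cells. The labels do not say how the 2 libraries of a condition were separated. The paper calls those of the in vitro conditions that vary temperature and time biologically independent. It calls those of each knockout line independent experiments. For the other conditions, among them the in vitro series of Tn5 and RNA amounts, the p-values below measure a spread between libraries that may be technical.

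The bulk libraries fall into several series. In vitro libraries were made from total RNA tagmented at 16 °C or 37 °C for 5, 10, 15 or 30 min (8 libraries each), with 25, 50 or 100 ng/μl Tn5 (6 libraries), or from 300 ng, 3 ng or 30 pg of RNA (6 libraries). SET-seq libraries were made from cytoplasmic RNA. Of these, 8 libraries of 10, 100, 1000 or 10000 cells have titles without a histone mark and are called without antibody below. Those of 100, 1000 or 10000 cells assayed together with H3K4me3 (6 libraries) or H3K27me3 (6 libraries) are called antibody libraries. Ligation-based RNA-seq of poly-A RNA gave 2 libraries. All of these are untreated wild-type (WT) cells by their labels. KO1 and KO2 are CRISPR knockouts of Aebp2, an accessory subunit of the H3K27 methyltransferase PRC2, made with different sgRNAs and assayed by SET-seq with H3K27me3 (2 libraries each). Each is represented by clonal cells, so an effect of the clone cannot be told apart from that of the knockout, and their cell number is not labelled. The single cells had been held for 12 h with Wnt3a-coated beads, and were taken as pairs of a cell proximal and a cell distal to the bead (10 experiments with H3K27me3 and 6 with H3K4me3).

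DPPA2 and DPPA4 form a heterodimer that binds GC-rich promoters and is known in mESCs for keeping developmental promoters poised and for activating genes of the 2-cell embryo. DPPA3 (Stella) protects the maternal genome from demethylation in the zygote, and DPPA5A is a small KH-domain protein abundant in naive mESCs. The other genes are typical of genes silenced by promoter DNA methylation in somatic cells and held down in mESCs by a variant Polycomb complex with MGA and E2F6. That complex is known to recognise E-boxes and E2F6 sites, and its targets are opened in the developing germ line.

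The files, which use mm9, place Dppa4 (chr16:48283848-48294405) and Dppa2 (chr16:48310387-48319626) side by side on the plus strand within 35.8 kb. Dppa3 lies at chr6:122576442-122580289 and Dppa5a at chr9:78214861-78216006. Dazl lies at chr17:50418718-50432945, Ddx4 at chr13:113388541-113442518, Mael at chr1:168131516-168168875, Sycp3 at chr10:87922332-87935981 and Stk31 at chr6:49345603-49419501. Values are counts over all exons of a gene, 3 exons for Dppa5a to 24 for Stk31. Of the 1122 exonic bases of Sycp3, 80 are shared with Chpt1, and no strand setting is given for the counting, so reads there cannot be assigned to either gene.

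The 250 bases before the start site, from RefSeq in GRCm38.p6, were found for the 5 germline genes. Dazl, Ddx4 and Sycp3 are shown because they differ in the 2 sites named above, and the capitals mark CACGTG (the E-box, its own complement) and TCCCGC or its complement GCGGGA (the E2F6 site).
Dazl (chr17:50293621-50293870, minus strand): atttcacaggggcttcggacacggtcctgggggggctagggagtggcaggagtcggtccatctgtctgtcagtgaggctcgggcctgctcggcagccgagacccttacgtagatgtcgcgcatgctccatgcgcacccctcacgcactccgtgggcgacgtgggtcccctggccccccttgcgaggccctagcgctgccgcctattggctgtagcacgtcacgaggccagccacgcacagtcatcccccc
Ddx4 (chr13:112652311-112652560, minus strand): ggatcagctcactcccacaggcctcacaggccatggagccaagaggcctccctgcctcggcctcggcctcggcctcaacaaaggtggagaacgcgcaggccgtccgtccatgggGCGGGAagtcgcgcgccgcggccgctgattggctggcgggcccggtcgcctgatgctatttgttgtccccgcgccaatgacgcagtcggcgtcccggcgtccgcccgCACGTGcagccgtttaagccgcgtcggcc
Sycp3 (chr10:88459337-88459586, plus strand): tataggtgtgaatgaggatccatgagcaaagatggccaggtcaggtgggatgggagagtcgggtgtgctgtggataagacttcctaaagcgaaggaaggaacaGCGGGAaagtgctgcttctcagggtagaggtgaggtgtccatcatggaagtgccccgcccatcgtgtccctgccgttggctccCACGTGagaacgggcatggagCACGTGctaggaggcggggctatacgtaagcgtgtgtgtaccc
CACGTG was in 4 of the 5 windows, Ddx4, Mael, Sycp3 and Stk31, against 6.02% of 32851 promoter windows of the same length. The E2F6 letters were in 3 of the 5, Ddx4, Mael and Sycp3, against 16.9%. The window of Dazl held neither. Its GC content was 67.2%, between 57.2% for Sycp3 and 70.4% for Ddx4. These are matches of letters in a window, not binding sites.

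Total counts without the precursor rRNA gene Rn45s ranged from 188275 to 16888686 per library, with a median of 3569340, and the 3 shallowest held 188275, 195539 and 323449. CPM below are counts scaled to that total, and RPKM are CPM per kb of exon. In the shallowest libraries the germline genes were often at 0. No 2 libraries were identical. The mESC marker genes summed to 2110 to 6598 CPM in every library. Hprt, a purine salvage gene that ES-E14TG2a is known to lack, split the libraries: it was at 0 to 1.29 CPM in the 28 in vitro libraries and 0 to 2.14 CPM in the 4 KO libraries, but at 66.2 to 485 CPM in the other 22, which are all SET-seq libraries of WT cells and the ligation-based libraries. For those 22 libraries the reads go against the line named in the methods, and each comparison below that crosses the split carries it.

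Per exon length, Dppa5a stood far above the other members, with a median of 2968 RPKM over the 54 libraries. Dppa4 followed with a median of 68.1 RPKM, then Dppa3 with 19.0 RPKM and Dppa2 with 11.6 RPKM. The germline genes were low, at medians of 4.52 RPKM for Dazl, 3.82 for Stk31, 1.16 for Mael, 0.812 for Sycp3 and 0.379 for Ddx4. The ranges of Dazl and Stk31 (0 to 32.3 and 0 to 11.9 RPKM) overlap widely, and so do those of Mael, Sycp3 and Ddx4 (highest 5.99, 9.61 and 5.17 RPKM). Ddx4 had no count in 11 libraries, Sycp3 in 9 and Mael in 7, whereas Dppa4 and Dppa5a were counted in all 54. In bulk libraries fewer cells with a transcript and less of it per cell cannot be told apart.

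**Figure D1:**
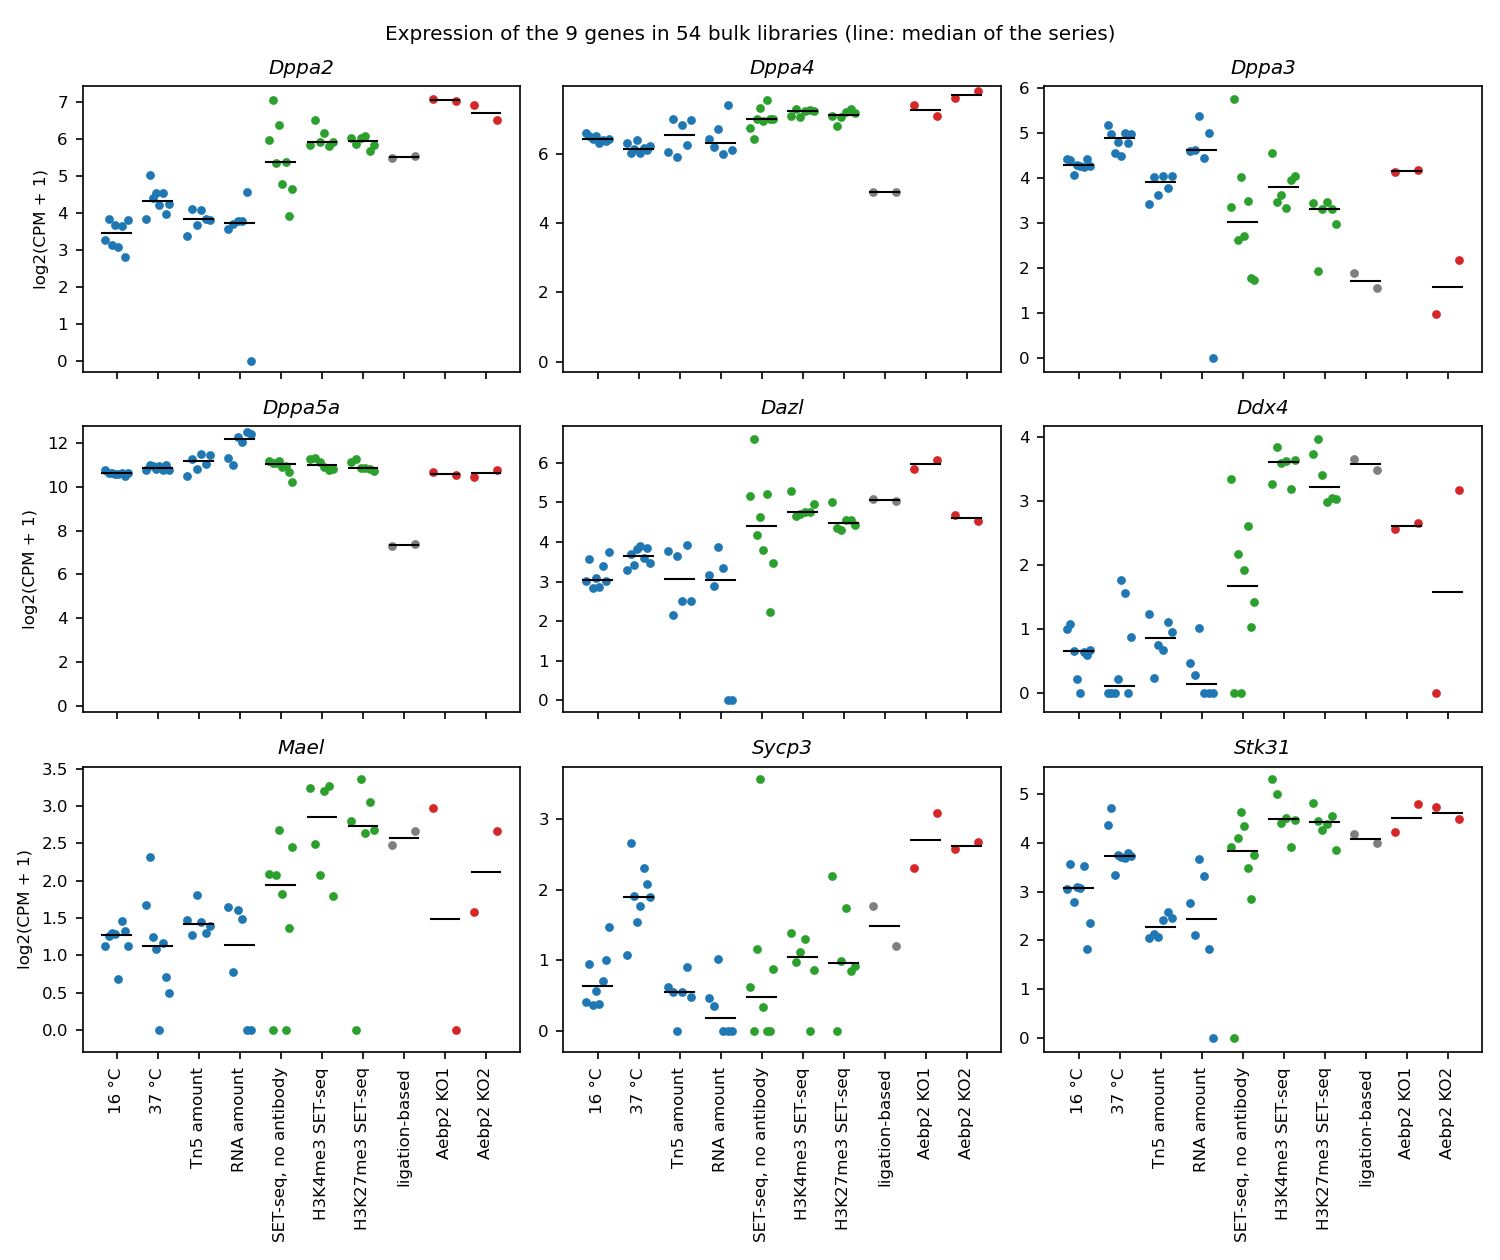
Level of each member in the 54 bulk libraries as log2(CPM + 1), 1 point per library, grouped by series, with a line at the median of the series (blue: in vitro, green: SET-seq of WT cells, grey: ligation-based, red: Aebp2 knockouts). Dppa2, Dazl and Ddx4 were higher in most WT SET-seq libraries than in vitro, Dppa3 was lower in many, and Dppa5a was lowest in the ligation-based libraries.

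Loss of Aebp2 was compared with the 6 WT SET-seq libraries made with the same antibody. As the mean of both clones, Dppa2 and Dazl were higher in the knockouts, Dppa4 was slightly higher, and no other member passed the test. The p-values measure the spread between libraries within a group and leave out the spread between the clones. Aebp2 itself, over all exons, was at 15.7 and 15.0 CPM in KO1 and at 49.7 and 30.2 CPM in KO2, against 34.7 to 76.0 CPM in WT. KO1 was below every WT library and KO2 overlapped them, and the fit gave a log2 fold change of −1.09 (SE 0.24, adjusted p = 0.00158). Counts over all exons also hold transcripts with a small frameshift, so they do not test the edit itself.

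Dppa2 was at 134 and 130 CPM in KO1 and at 119 and 89.9 CPM in KO2. In the WT libraries it ranged from 50.1 to 67.3 CPM with a median of 60.8 CPM. All 4 knockout libraries were above all WT libraries, and the log2 fold change was 0.98 (SE 0.15, adjusted p = 5.22e-05 in edgeR's quasi-likelihood test with Benjamini-Hochberg adjustment over 11446 genes). It stayed between 0.88 and 1.05 when any library was left out.

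Dazl, an RNA-binding protein that germ cells need, was at 56.9 and 66.3 CPM in KO1 and at 24.9 and 22.2 CPM in KO2, against 18.9 to 31.5 CPM in WT. KO1 was above every WT library, whereas KO2 lay among them. The log2 fold change of both clones together was 0.77 (SE 0.22, adjusted p = 0.00953). For KO1 alone it was 1.40 (adjusted p = 0.000506), and for KO2 alone 0.14 (adjusted p = 0.768).

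Dppa4, the partner of DPPA2, was at 170 and 134 CPM in KO1 and at 193 and 222 CPM in KO2. The WT libraries ranged from 109 to 155 CPM. KO2 was above them and KO1 overlapped them. The log2 fold change of 0.42 (SE 0.13, adjusted p = 0.0155) did not pass when KO1 replicate 1 or KO2 replicate 2 was left out (adjusted p = 0.184 and 0.112) or without the filter on low counts (0.34, adjusted p = 0.102). For KO1 alone it was 0.12 (adjusted p = 0.597), and for KO2 alone 0.71 (adjusted p = 0.0028).

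Dppa3 was at 16.7 and 17.1 CPM in KO1 and at 0.994 and 3.56 CPM in KO2, around the WT range of 2.81 to 10.2 CPM. The clones lay on opposite sides of the median of WT, and their mean gave −0.29 on the log2 scale (SE 0.51, adjusted p = 0.675). Dppa5a was at 1667, 1477, 1423 and 1740 CPM in the 4 knockout libraries and at 1705 to 2519 CPM in WT, a log2 fold change of −0.33 (SE 0.14, adjusted p = 0.0717). It passed, with the same sign, without KO2 replicate 2 (adjusted p = 0.043) or either WT library of 10000 cells (adjusted p = 0.0374 and 0.0372), without the filter (adjusted p = 0.0168) and with all 12 antibody libraries as WT (adjusted p = 0.019).

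The remaining germline genes had few counts. Ddx4, the helicase VASA, was at 4.91, 5.35, 0 and 8.01 CPM in the knockouts and 6.97 to 14.7 CPM in WT (log2 fold change −1.07, SE 0.60, adjusted p = 0.166). Without KO2 replicate 2 its value was −4.40 (adjusted p = 0.00536), and with all 12 antibody libraries as WT it was −1.16 (adjusted p = 0.0478), so the call rests on the libraries used. Sycp3, of the synaptonemal complex, had 4, 7, 5 and 6 counts in the knockouts, 3.92 to 7.49 CPM, all above the WT range of 0 to 3.55 CPM (log2 fold change 1.85, SE 0.95, adjusted p = 0.127). Mael, of the piRNA pathway, was at 6.87, 0, 1.99 and 5.34 CPM against 0 to 9.26 CPM, and Stk31, a kinase of spermatogenic cells, at 17.7, 26.7, 25.9 and 21.4 CPM against 13.5 to 27.2 CPM. Neither passed, with log2 fold changes of −0.54 (SE 0.98) and 0.17 (SE 0.27).

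Thus 3 of the 9 members passed at an adjusted p below 0.05, all higher in the knockouts, where 45% of all genes tested passed, 20% of all as higher and 25% as lower. The members' share is near that background. The Hprt level went with genotype in this comparison, and Rn45s took 48.8% to 56.7% of the counts in the knockouts against 21.9% to 29.7% in WT; their part in these differences was not tested. The comparison was therefore also made with other WT libraries, at the cost of another library type. Against the in vitro 37 °C libraries, which lack Hprt like the knockouts, Dppa2 was higher by 2.55 on the log2 scale, Dazl by 1.73 and Dppa4 by 1.31, and Dppa3 fell by 2.13. Against the 16 °C libraries the values were 3.46, 2.13, 0.98 and −1.63, and against the Tn5 amounts 3.00, 2.16, 0.79 and −1.23. Against SET-seq without antibody Dppa2 was higher by 1.63 and Dazl by 1.35, while Dppa4 did not pass (0.29, adjusted p = 0.140). As the mean of both clones, Dppa2 and Dazl were thus higher against each of these WT sets. For Dazl, KO2 alone did not pass against H3K27me3 SET-seq (0.14, adjusted p = 0.768). WT SET-seq with H3K27me3 was itself above the in vitro libraries. Its condition means were 53.4 to 66.1 CPM for Dppa2, against at most 22.5 CPM in vitro. For Dazl they were 20.7 to 25.4 CPM against at most 12.4 CPM. These WT sets differ in library type and in Hprt level, which cannot be told apart here. The part of the library type in the values against in vitro libraries was not tested.

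**Figure D2:**
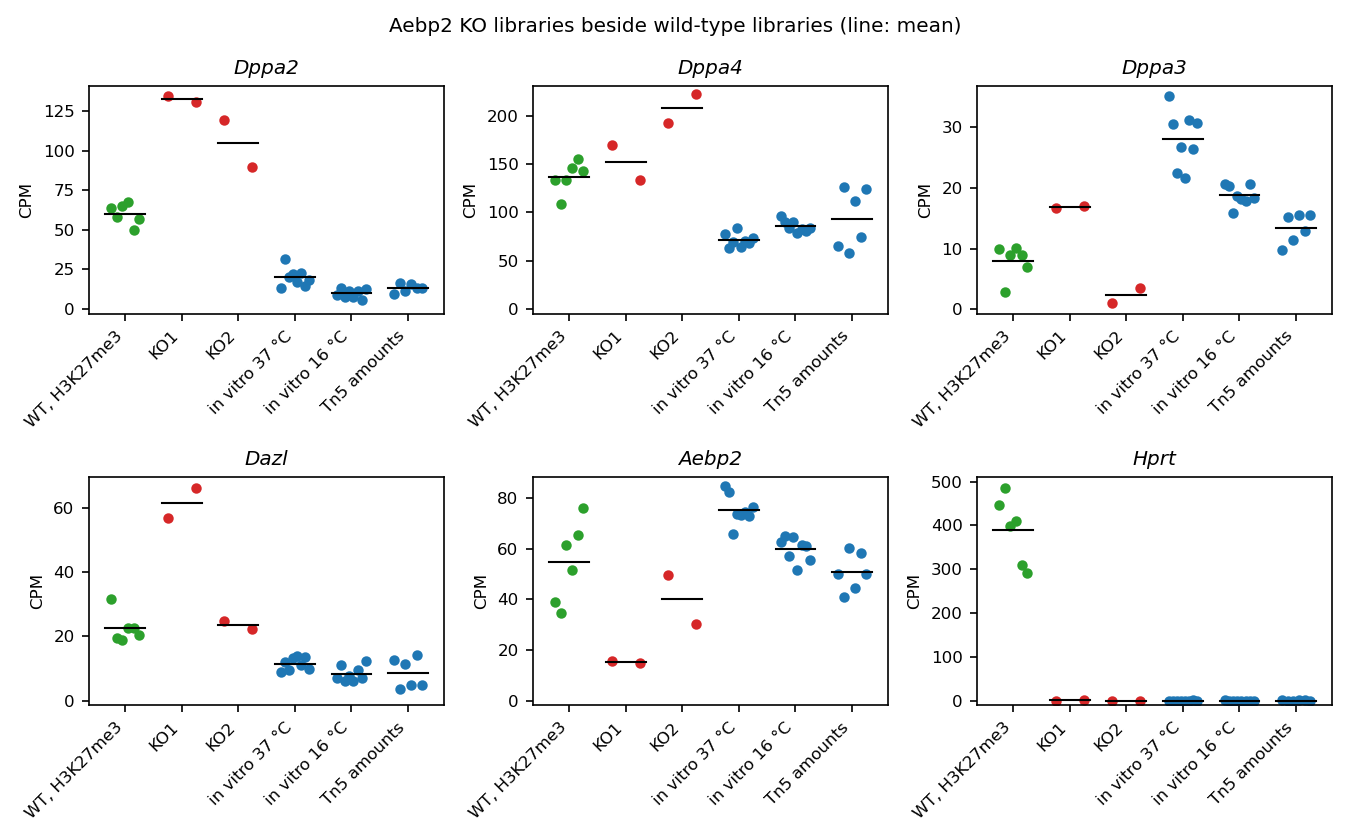
CPM of 4 members and of Aebp2 and Hprt, 1 point per library with a line at the mean, in WT SET-seq with H3K27me3 (green), both Aebp2 clones (red) and 3 WT in vitro series (blue). Dppa2 lay above all WT libraries in both clones, Dazl and Dppa3 were higher in KO1 than in KO2, and Hprt was near 0 in the knockouts and in vitro.

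The clones were also compared with each other. Dppa3 was higher in KO1 than in KO2 by 2.70 on the log2 scale (SE 0.85, unadjusted p = 0.00599, adjusted p = 0.165), and Dazl by 1.26 (SE 0.36, unadjusted p = 0.00263, adjusted p = 0.113). Dppa4 was lower in KO1 by 0.58 (SE 0.21, adjusted p = 0.225), a log2 fold change of −0.58, and Dppa2 differed by 0.22 (SE 0.24, adjusted p = 0.796). No member passed, and 0.847% of all genes did, 0.515% as higher and 0.332% as lower in KO1. DESeq2 called 332 genes against 97 in edgeR, again with 0 members, and 1491 genes had an unadjusted p below 0.05 in edgeR. For Dppa3, Dazl and Dppa4 both libraries of a clone lay on the same side of both libraries of the other. Without H3K27me3 SET-seq of 100 cells replicate 1, which enters through the shared spread, Dazl passed (adjusted p = 0.0331).

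Gene lists linked to these members were set beside them in the comparison of KO with WT, where the median log2 fold change of all genes was −0.07, 20% of all genes rose and 25% fell. Of 17 tested germline genes of the class silenced by DNA methylation and the MGA-E2F6 complex, 1 rose and 6 fell, with a median of −0.49. The 7 called of 17 are near the 45% of all genes. Tex15, needed for piRNA-directed silencing, rose by 1.72 (SE 0.17, adjusted p = 6e-07), and Hormad2, Rhox13 and Piwil2 had −2.89, −2.51 and −1.74. The calls of these 3 were lost without KO2 replicate 2 (adjusted p = 0.0854, 0.0529 and 0.0694), and each also without a library of KO1. Of 15 repressors of such genes, 9 rose and 1 fell, with a median of 0.65. Dnmt3a and Dnmt3b, the de novo DNA methyltransferases, rose by 3.07 and 1.62, and Mga by 1.52, while Tfdp1 had −1.23. Dnmt3a was at 188 to 235 CPM in the 4 knockout libraries against 20.6 to 33.9 CPM in WT, with no overlap. Of 14 genes of primordial germ cell specification 2 rose, Lin28a (1.86) and Sall4 (1.08), and 8 fell, led by Prdm1 (−1.36), Ifitm3 (−1.23) and Tfap2c (−1.16). The direction of Tfap2c, Prdm1, Tfdp1 and Piwil2 turned against some other WT libraries, and so did the median of the germline list: against the in vitro 37 °C libraries it was 1.04 over 11 tested, with 6 higher and 3 lower. With that reference the median was 0.75 for the repressors (8 of 15 higher, 5 lower) and 0.11 for the primordial germ cell genes (4 higher, 4 lower). Dnmt3a, Dnmt3b, Mga, Lin28a, Sall4 and Tex15 kept their direction in the 23 alternatives run.

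Genes of the 2-cell-like state and linked to DPPA2 and DPPA4 had a median of 2.23 over 10 tested, with 6 higher and 2 lower. Zscan4c, a marker of 2-cell-like mESCs, was at 159 and 194 CPM in KO1 and 98.8 and 130 CPM in KO2 against 5.81 to 17.8 CPM in WT, a log2 fold change of 3.79 (SE 0.22, adjusted p = 2.88e-09). Zscan4d rose by 3.53, and Pramel6 had −3.20. Zscan4b (3.00) and Pramel7 (−2.19) were called less firmly. The call of Zscan4b was lost without any 1 of the knockout libraries (adjusted p = 0.0634 to 0.243) and without 1 WT library of 10000 cells (0.0702). That of Pramel7 was lost without either library of KO1 (0.132 and 0.0795) or KO2 replicate 2 (0.145) and with the replicate block (0.0555). Both were lost without the filter and with either clone alone. Zscan4, Usp17l and Pramel genes have near-identical copies that can split or lose reads, so their values are uncertain. Against the in vitro 37 °C libraries all 4 tested genes of the list were higher, with a median of 5.10. The list summed to 374 and 433 CPM in KO1 and 190 and 267 CPM in KO2, against 45.4 to 71.1 CPM in WT. Dppa2 thus stood beside a higher 2-cell-like sum in the same libraries. Of the mESC markers 4 of 7 fell, among them Klf4 (−2.47), Zfp42 (−0.76) and Nanog (−0.61). These counts depended on the WT libraries. Against the in vitro 37 °C libraries 4 were higher and 3 lower (median 0.33), and against 16 °C 3 and 3 (0.13). Against the Tn5 amounts they were 3 and 4 (−0.36), and against SET-seq without antibody 1 and 2 (−0.35). With all 12 antibody libraries as WT 4 again fell and 0 rose. The paper reports Oct4, Nanog and Sox2 as unchanged by the knockout. Among 3 primed epiblast markers tested Lef1 (5.85) and Otx2 (2.76) rose. Of 4 trophoblast markers 2 rose, of 3 fibroblast markers none passed, of 3 other Dppa and KHDC1 family genes 1 rose and 1 fell, and no primitive endoderm marker could be tested. The primed epiblast markers summed to 50.7 to 108 CPM in the knockouts and 2.88 to 23.0 CPM in WT, but to 97.2 to 138 CPM in the in vitro 37 °C libraries. This moved with genotype among the SET-seq libraries, and its part in the changes above was not tested.

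Several members differed between the series tagmented at 37 °C and at 16 °C. The share of Rn45s also differed, from 33.0% to 40.7% in the warmer series and from 11.8% to 25.1% in the colder one, and its part in these differences was not tested. Dppa2 was at 6.04 to 13.2 CPM at 16 °C, with a median of 10.2 CPM, and at 13.2 to 31.8 CPM at 37 °C, with a median of 19.14 CPM. Only the edges of the ranges met, and the log2 fold change was 1.09 (SE 0.15, adjusted p = 5.6e-07). Stk31 was at 2.52 to 10.8 CPM at 16 °C and 9.17 to 25.2 CPM at 37 °C, a log2 fold change of 0.92 (SE 0.17, adjusted p = 3.07e-05). Dppa3 was at 15.8 to 20.6 CPM at 16 °C and 21.6 to 35.2 CPM at 37 °C without overlap (0.65, SE 0.10, adjusted p = 1.13e-06). Dazl and Dppa5a were higher at 37 °C by 0.55 and 0.30, and Dppa4 was lower, with −0.20 (SE 0.06, adjusted p = 0.0079). All 6 members that could be tested passed, 5 higher and 1 lower, where 65.3% of all genes did, 32% as higher and 33.2% as lower. Ddx4, Mael and Sycp3 had too few counts to be tested, and Sycp3 was at 0.290 to 1.77 CPM at 16 °C and 1.10 to 5.30 CPM at 37 °C.

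The in vitro series also differed from each other. In the Tn5 amounts against the 37 °C series 5 of 8 tested members passed, 1 higher and 4 lower, where 64.7% of all genes did, 34.6% as higher and 30% as lower. Sycp3 was at 0 to 0.875 CPM in the Tn5 amounts, below every 37 °C library (−2.57, SE 0.35, adjusted p = 2.72e-06). Stk31, at 3.14 to 4.96 CPM, was also below all 37 °C libraries (−1.74, SE 0.21, adjusted p = 5.01e-07), and so was Dppa3, at 9.82 to 15.6 CPM (−1.01, SE 0.15, adjusted p = 6.32e-06). Dppa2, at 9.41 to 16.2 CPM, had −0.54 (adjusted p = 0.00919), but 0.55 (adjusted p = 0.0113) against the 16 °C series, so its direction changed with the reference series. Dppa4 was at 65.1 and 126 CPM with 25 ng/μl, 58.3 and 112 CPM with 50 ng/μl and 74.4 and 124 CPM with 100 ng/μl. Replicate 2 was the higher of the pair at each amount, also for Dppa5a (1450 and 2530, 1810 and 2932, 2118 and 2796 CPM), and the lower for Dazl (12.6 and 3.49, 11.4 and 4.73, 14.3 and 4.71 CPM). For these members the spread between replicates exceeded that between Tn5 amounts, and the change of Dppa4 (0.43, adjusted p = 0.0386) did not pass without any 1 of 9 libraries. Same-numbered libraries of the 3 amounts deviated together (r 0.86 to 0.92 between their deviations across 8224 genes), so the 6 libraries were not independent and the p-values above may be too small. With their counts summed per replicate number into 2 samples, an alternative chosen after seeing the data, the same 5 members passed, with adjusted p = 0.0347 for Dppa2 and Dppa4.

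The 2-cell-like list differed between the same series. All 11 tested genes were higher with the Tn5 amounts, with a median of 3.50 on the log2 scale against 0.08 for all genes, led by Usp17la (4.28), Usp17le (4.05) and Pramel6 (4.05). The list summed to 82.3 to 110 CPM there and to 7.49 to 14.3 CPM at 37 °C, while Dppa2 was slightly lower and Dppa4 slightly higher. Of 19 germline genes tested 6 rose, led by Fkbp6 (1.43), Mov10l1 (1.28) and Tuba3b (1.02), and 4 fell, no more than the shares of all genes given above (34.6% and 30%), led by Hormad1 (−4.40), Tex15 (−2.74) and Smc1b (−2.01). The Tn5 amount and whatever else differed between the series cannot be told apart.

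Libraries of 300 ng RNA, compared with the same 37 °C series, had 3 of 8 members lower and none higher, where 32.1% of all genes passed, 15.3% as higher and 16.8% as lower. These were Sycp3 (−3.05, SE 0.56), Stk31 (−1.56, SE 0.31) and Dppa2 (−0.75, SE 0.25). Sycp3 was at 0.389 and 0.284 CPM, Stk31 at 5.84 and 3.34 CPM and Dppa2 at 10.9 and 11.9 CPM, all below every 37 °C library. None passed without replicate 2 (adjusted p = 0.0693, 0.101 and 0.179). Against the 16 °C series Dppa2 had 0.34 (adjusted p = 0.365) and Stk31 −0.65 (adjusted p = 0.194). With less RNA, Dppa5a was counted at 5083 and 4257 CPM from 3 ng and at 5874 and 5565 CPM from 30 pg, above the 2566 and 2049 CPM from 300 ng. Dazl, Ddx4, Mael and Sycp3 had no count in either library of 30 pg.

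SET-seq libraries with a histone mark in their titles were compared with those without one at matched cell numbers. Per the methods, the RNA is taken off the nuclei before an antibody is added. The comparison is therefore one of 2 sets of libraries, and what else differed between the sets is not in the titles. Dppa2 was at 50.1 to 90.8 CPM in the 12 antibody libraries and at 14.3 to 82.4 CPM without antibody, where it was 39.8 and 82.4 CPM for 100 cells, 26.5 and 40.9 CPM for 1000 cells and 14.3 and 24.3 CPM for 10000 cells. The ranges overlapped, and the log2 fold change was 0.80 (SE 0.19, adjusted p = 0.000979). Ddx4 was at 6.97 to 14.7 CPM with antibody and 0 to 5.11 CPM without, with no overlap (2.11, SE 0.39, adjusted p = 0.000101). Dazl was higher by 0.81 (SE 0.25, adjusted p = 0.00974). These 3 of 8 tested members passed, where 43% of all genes did, 21.5% in each direction. Hprt was also higher in the antibody libraries, by 0.83 (SE 0.14, adjusted p = 2.48e-05), and its part in these differences was not tested.

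Between the H3K27me3 and H3K4me3 assays no gene passed (0% of 10830; 347 at an unadjusted p below 0.05, and 0 adjusted and 371 unadjusted in DESeq2). The largest difference among the members was that of Dppa3, at 2.81 to 10.2 CPM with H3K27me3 and 9.05 to 22.5 CPM with H3K4me3 (−0.82, SE 0.35, unadjusted p = 0.033, adjusted p = 0.997). In SET-seq of 10 cells Dppa2 was at 61.5 and 133 CPM, Dazl at 34.7 and 95.6 CPM and Dppa3 at 9.20 and 53.1 CPM, and replicate 2 was the shallowest of all libraries.

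SET-seq of cytoplasmic RNA from 10000 cells and ligation-based RNA-seq were each set against tagmentation of total RNA at 37 °C for 5 min, which serves as control for both. Dppa3 was at 35.2 and 30.5 CPM in the control, at 2.46 and 2.33 CPM in SET-seq and at 2.70 and 1.94 CPM in ligation-based RNA-seq, log2 fold changes of −3.63 (SE 0.37, adjusted p = 2.93e-05) and −4.03 (SE 0.34, adjusted p = 8.35e-06). Dppa5a was at 1760 and 2090 CPM in the control, 1653 and 1211 CPM in SET-seq and 158 and 167 CPM in ligation-based RNA-seq. Only the last stood apart, with a log2 fold change of −3.78 (SE 0.25, adjusted p = 2.35e-06). Dppa4 was lower with ligation (−1.53, SE 0.20, adjusted p = 0.000135) and higher in SET-seq (0.98, SE 0.19, adjusted p = 0.0015).

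Among the germline genes, Dazl was at 32.7 and 31.9 CPM with ligation against 8.79 and 11.9 CPM in the control (1.44, SE 0.42, adjusted p = 0.0155). Its call was lost without either library of the control (adjusted p = 0.167 and 0.0738). Ddx4 had 164 and 143 counts with ligation and 0 in both control libraries, which makes it at least 6.09-fold higher when 3 counts are allowed over the control group. Stk31 was at 6.16 and 12.5 CPM in SET-seq against 19.8 and 25.2 CPM (−1.16, SE 0.36, adjusted p = 0.0224). This call was lost without SET-seq replicate 1 (adjusted p = 0.0618) or either control library (0.0811 and 0.173), and without the filter (0.0778). In all, 3 of 9 members passed in SET-seq, 1 higher and 2 lower, where 49.4% of all genes did, 25.8% as higher and 23.6% as lower. With ligation 5 of 9 passed, 2 higher and 3 lower, where 48.3% of all genes did, 25.1% as higher and 23.2% as lower. Hprt was at 0 CPM in both control libraries and at 66.2 to 184 CPM in the others, so the cells and the library method cannot be told apart here.

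**Figure D3:**
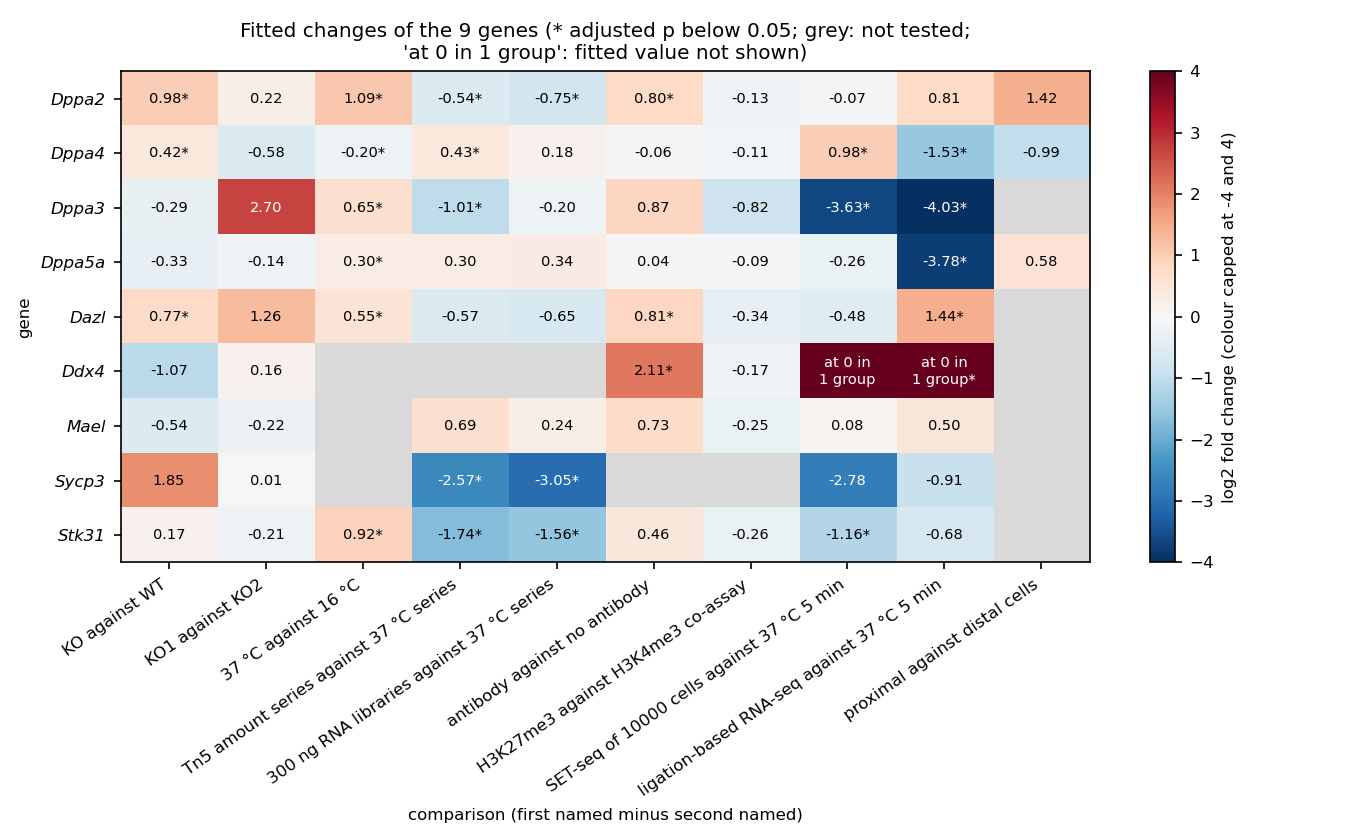
Fitted log2 fold change of each member (rows) in each comparison (columns), with red for higher and blue for lower in the group named first; a star marks an adjusted p below 0.05, and grey cells were not tested. Dppa2 was called in 5 of the comparisons with both signs, and Dppa3 and Dppa5a had their most negative values with ligation.

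Over the 27 bulk conditions, the levels of Dppa2, Dazl and Stk31 went together, with Pearson's r of log2(CPM + 1) of 0.81 for Dppa2 and Dazl, 0.74 for Dppa2 and Stk31 and 0.73 for Dazl and Stk31. Dppa2 and Dppa4, the neighbours whose proteins pair, had 0.50. Dppa2 and Dppa3 had −0.37. Dppa2 also had 0.68 with Hprt, and conditions of a series share RNA, library method and depth, so these are descriptions. The genes most like Dppa2 among 10120 were Nono (0.94), Med6, Mapre1, Abcg2 and Septin6. Those most like Dazl were Elp4 (0.94), Wdr47, Bclaf3, Terf2ip and Orc5, and those most like Stk31 were Glmn (0.94), Shcbp1, Gmfb, Morf4l1 and Atf7ip2. Dppa5a was closest to the ribosomal protein gene Rps25 (0.96), then Rps6-ps4, Gm5148, Mir682 and Gm12338. Dppa4 was closest to Ubb-ps (0.90), Actg1, Tpm3, Hnrnpf and Tmx2, and Dppa3 to Ppp1r2 (0.89), Fam76a, Ccni, Tspan13 and Hscb.

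In the single cells, 545 of 752 passed with more than 1000 and fewer than 5000 detected genes. The 752 cells carried 96 barcodes, of which 80 occurred in more than 1 experiment, and no 2 cells were identical. H3K27me3 experiments 8 to 10 stood apart. Their 165 passing cells had a median of 241640 counts, but Dppa5a had only 15, 7 and 14 reads in each, and the mESC markers summed to 15.1 CPM with 1 of 6 at 0, against 937 CPM in the 380 cells of the other 13 experiments. Fibroblast (0.110 against 367 CPM), trophoblast (0.220 against 18.6 CPM) and primed epiblast markers (11.4 against 22.3 CPM) were lower there too. Primitive endoderm markers were at 14.4 against 10.5 CPM. Lineages outside these lists were not looked at, and the cause of the low stem cell markers in these 3 experiments was not tested. The values below are from the other 13 unless stated.

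Dppa5a had a read in 97.1% of 380 cells (95% Wilson interval 94.9% to 98.4%). Over all 545 passing cells, with experiments 8 to 10, its share was 72.3% (68.4% to 75.9%). Of the 380 cells, 27.1% (22.9% to 31.8%) had a read of Dppa4 and 24.7% (20.7% to 29.3%) one of Dppa2. In experiments 8 to 10, which were set apart partly for their low Dppa5a, the shares were 15.2%, 0.606% and 1.21%. They are separate pools and do not measure the background within the other 13. Stk31 had a read in 10.8% of cells, Dppa3 in 7.37%, Dazl in 6.84%, Ddx4 in 6.32%, Mael in 5.26% and Sycp3 in 0.526%, or 2 cells. The intervals of the shares of Dppa3, Dazl, Ddx4 and Mael overlapped. The intervals treat all cells as independent and leave out the spread between experiments. Dppa2 was read in 8.51% of cells in H3K4me3 experiment 4 and 81.8% in H3K4me3 experiment 6, both outside its interval. Dppa4 was read in 0% in H3K27me3 experiment 4 and 72.7% in H3K4me3 experiment 6. Reads without molecular identifiers are also not independent molecules.

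**Figure D4:**
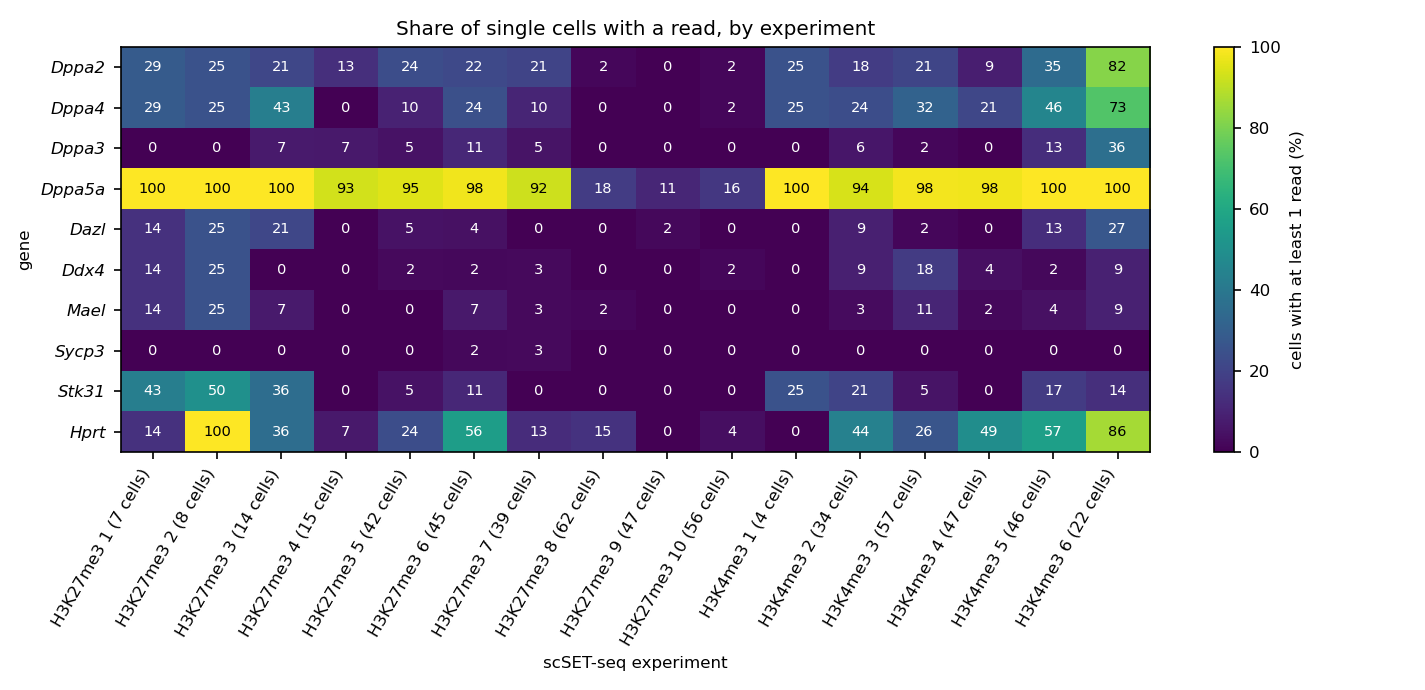
Share of passing cells with at least 1 read of each member and Hprt (rows) in each of the 16 single-cell experiments (columns, with the number of cells). Dppa5a was read in 92% to 100% of cells except in H3K27me3 experiments 8 to 10, where it was read in 11% to 18%, and Dppa2 and Dppa4 varied between experiments.

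Summed over the 380 cells, Dppa5a was at 857 CPM, Dppa4 at 73.4 CPM, Stk31 at 39.1 CPM, Dppa2 at 32.9 CPM and Dazl at 32.3 CPM. Much of these sums came from few cells. The cell with most reads held 71.6% of all reads of Ddx4, 67.7% of Dppa3, 45.9% of Dazl, 30.5% of Dppa2 and 19.9% of Dppa4, but 5.73% of Dppa5a. Only 8 cells had no member, 158 had 1, 130 had 2 and 56 had 3. Dppa2 and Dppa4 were read in the same cell in 34 cells, 36.2% of those with Dppa2 and 33.0% of those with Dppa4. The product of their shares over all 380 cells gives 25.5 cells. Both shares were high together in H3K4me3 experiment 6 (81.8% and 72.7%) and lower in H3K4me3 experiment 4 (8.51% and 21.3%). The pooled product leaves out such differences between experiments, so no excess of shared cells can be read from it. Dppa4 was read in 35.2% of cells assayed with H3K4me3 and 17.1% of those with H3K27me3 in experiments 1 to 7, and Dppa2 in 27.1% and 21.8%, and the experiments differ between the marks.

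Proximal and distal cells were compared over the 14 experiments with at least 3 passing cells of each, without regard to the 3 that stood apart. No gene passed in the summed counts (0% of 4885; 180 at an unadjusted p below 0.05, and 28 genes in DESeq2, none of them a member). The log2 fold changes were 1.42 (SE 1.10) for Dppa2, −0.99 (SE 1.11) for Dppa4 and 0.58 (SE 0.41) for Dppa5a, all with an adjusted p of 0.998. Dppa3 was read in 7.91% of 278 proximal and 2.25% of 267 distal cells. The share was higher in proximal cells in 7 experiments and lower in 1, by 6.15 percentage points on average (SD 9.72 over 14 experiments, p = 0.0391 in a two-sided exact sign-flip permutation test, adjusted p = 0.195 over 5 members), so it did not pass. Without the 3 experiments the difference was 7.82 points (adjusted p = 0.195, the same test). Dppa3 had 0 reads in those 3, so leaving them out could not change the p-value. Proximal cells were also deeper, with a median of 148096 counts against 129493. With cells thinned to 20000 counts the difference was 5.29 points (adjusted p = 0.3125, the same test). Over the 14 experiments Dppa2 differed by 3.49 points, Dppa5a by 1.77, Dppa4 by −0.32 and Stk31 by −2.53. None passed the sign-flip test (adjusted p = 0.586, 0.801, 0.963 and 0.801). In the study's clusters, which were made from these cells and are given without a test, Dppa3 was read in 13.6% of cells of the Proxi cluster, 6.52% of the Mix cluster and 1.71% of the Dista cluster, whereas Dppa2 was read in 27.2%, 23.9% and 23.1%.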

How the data were processed

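Gene expression was analysed in 54 bulk libraries and 16 single-cell experiments, grouped by their labels. Genomic libraries were not analysed here. Per the submitters' processing notes, reads were trimmed with Trim Galore 0.6.4 and aligned with STAR 2.5.4b to mm9, and featureCounts 2.0.0 is named for the counting. The deposited values are counts without normalization, made by the authors for each gene of each bulk library and, with zUMIs and no molecular identifiers, of each cell. Authors' fold changes were not used.

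Rn45s was removed, and CPM and RPKM were calculated from the remaining counts and the exon lengths in the files. Comparisons used edgeR 4.0.16 in R 4.3.3 with TMM, its filter on low counts, the quasi-likelihood test over all genes and an adjusted p below 0.05 (Benjamini-Hochberg). WT for the knockouts was SET-seq with H3K27me3, since the sources do not name the libraries. Single cells were summed per experiment and position over at least 3 cells, with the experiment as a block. Positions and clusters were taken from the study's list of cells. Shares of cells were tested for members read in at least 5% of cells. Alternatives were DESeq2 1.42.0, its size factors, no filter, Rn45s kept, a replicate block, the study's rule (unadjusted p below 0.05 and an absolute log2 fold change above 1), other reference libraries, KO1 or KO2 by itself, and leaving out single libraries in turn. The scripts were tested on simulated data.

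The 9 members and the gene lists were chosen with earlier results of these data known. Of the lists, up to 3 called genes per direction with the largest changes are named, and for likeness the 5 genes with the highest r among genes of at least 5 CPM on average. Members below the filter are given by level only. Same-numbered libraries were checked for shared deviations from their group means: in no comparison were all pairs above an r of 0.1, so the numbers were not taken as pairs between groups. Some pairs were above it, 9 of 28 for temperature (r up to 0.57) and 12 of 28 for the fit of Tn5 amounts and 300 ng (up to 0.91). Those libraries may not all be independent. The Tn5 libraries were also summed per replicate number. Other steps ran in Python 3.11.15 (pandas 2.3.3, scipy 1.17.1 and numpy 2.4.6).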

Additional observations from a re-analysis of the deposited data

Results flagged for a closer look

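In groups of 4 to 10 samples, 11 of 81 Dixon tests found the highest sample far from the others. Their rate of about 1 in 20 by chance holds for normal values and not for sparse counts. The 11 are therefore not read as an excess. In bulk, these were Dppa5a at 16 °C for 5 min replicate 1 (1767 CPM, others 1464 to 1606), Dazl in H3K27me3 SET-seq of 100 cells replicate 1 (31.5 CPM, others 18.9 to 22.6), Mael with 50 ng/μl Tn5 replicate 1 (2.51 CPM, others 1.42 to 1.77) and Sycp3 in SET-seq of 100 cells without antibody replicate 2 (10.8 CPM, others 0 to 1.23).

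In single cells summed per H3K27me3 experiment, experiment 3 was highest for Dppa4 (321.6 CPM in 6 cells, others up to 8.25) and Dazl (225.1 CPM in 3 cells, others up to 5.50), experiment 6 for Dppa3 (45.8 CPM from 1004 reads in 5 cells, of which 1 cell held 1000; others up to 6.87), experiment 5 for Ddx4 (1.37 CPM from 1 read in 727513 counts, others up to 0.456), experiment 2 for Mael (2.87 CPM from 28 reads in 2 cells, others up to 0.674) and experiment 7 for Sycp3 (0.912 CPM from 2 reads in 1 cell, others up to 0.0456). Among the H3K4me3 experiments, experiment 2 was highest for Ddx4 (39.6 CPM from 358 reads in 3 cells, others up to 10.7).

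The clones differed for 3 genes of the lists, tested as KO1 against KO2 in edgeR, where 0.847% of all genes passed. An effect of the clone cannot be told apart from that of the knockout here. Tex15 was higher in KO1 by 1.44 on the log2 scale (adjusted p = 0.0187) and Sox2 by 1.17 (adjusted p = 0.0456), and Vim was lower, with −1.14 (adjusted p = 0.0255). Each call was lost without some of the libraries, among them KO1 replicate 1 for all 3 (adjusted p = 0.0691, 0.136 and 0.11). That of Sox2 was also lost with the replicate block (adjusted p = 0.0746).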

How the results depend on the processing

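Counts of members called depended on the rule and the reference. With the study's rule 0 members passed between KO and WT (3 otherwise), 2 between the clones (0), 1 between temperatures (6), 3 for the Tn5 amounts (5) and 1 for antibody against none (3). For KO against WT, 6 passed with all 12 antibody libraries as WT, 6 with 37 °C, 8 with 16 °C and 8 with the Tn5 amounts. The 5 min libraries alone gave 3 members for temperature, and the 16 °C reference gave 1 for 300 ng. Leaving out 1 library gave 0 to 1 for KO1 against KO2 (1 without H3K27me3 100 cells replicate 1), 0 to 3 for 300 ng (0 without its replicate 2), 3 to 5 for antibody (5 without H3K27me3 100 cells replicate 2), 2 to 5 for SET-seq of 10000 cells (5 without its replicate 2), 2 to 4 for KO against WT and 4 to 7 for the Tn5 amounts. The cause was not tested.

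Over all genes, the study's rule gave 3074 for KO against WT (5145 otherwise), 536 for KO1 against KO2 (97), 949 for temperature (7370), 3012 for the Tn5 amounts (8053), 1238 for 300 ng (3993), 1348 for antibody (4839) and 27 for the 2 antibodies (0). Other settings that moved counts over 1.5 times were 16 °C (8400) and Tn5 libraries (7960) as WT, DESeq2 (332) and no filter (208) for KO1 against KO2, 5 min alone (3367), the 16 °C reference for 300 ng (2508) and its replicate 2 left out (686), 10000 cells alone for the 2 antibodies (3), and no filter (24) and DESeq2 (28) for proximal against distal cells.

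Between the groups compared, same-numbered libraries did not all deviate together (r −0.08 to 0.03 between knockout and WT groups). Between the groups of temperature and time r ranged from −0.11 to 0.57. Within the Tn5 amounts they did (0.86 to 0.92), and with those summed per number 5 members and 7034 genes passed. With the replicate block 3 members passed between KO and WT, 0 between the clones (45 genes), 6 for temperature, 6 for the Tn5 amounts, 3 for 300 ng, 3 for antibody, 0 between antibodies, 3 for SET-seq and 6 for ligation.

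Directions turned for Dppa3, KO against WT, without KO2 replicate 1 (−0.92 to 0.0077 over libraries left out), with KO1 alone (1.06) and against no antibody (0.033), and for Stk31 with all 12 antibody libraries (−0.026). Against no antibody Tfap2c had 0.084 and Prdm1 0.23, against 37 °C Tfdp1 0.25 and Tfap2c 0.00025. Against 16 °C Tfdp1 had 0.86, Ddx4 2.85, Tfap2c 0.28, Prdm1 0.20, Mael 1.36 and Piwil2 1.04, and against the Tn5 amounts Ddx4 2.49, Prdm1 0.27, Mael 0.96 and Piwil2 0.56. Dppa2 turned with the 16 °C reference for the Tn5 amounts (0.55) and 300 ng (0.34). Shares of proximal minus distal cells turned for Dppa4 (0.16) and Dppa5a (−2.13 points) after thinning to 20000 counts, for Dppa2 (−2.34) and Dppa4 (1.30) with all cells, and for Dppa5a (−1.87) without the 3 experiments, an alternative chosen after seeing the data. For Dppa3 the share stayed higher in proximal cells under each, by 2.35 to 7.82 points. Depth limits Ddx4, Mael and Sycp3, which had few or no counts in many libraries.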
